A study of Mus musculus with 10 samples.

Results

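Triglyceride synthesis and the assembly of very low density lipoprotein (VLDL) were followed through 10 genes, Gpam, Agpat2, Agpat3, Lpin1, Lpin2, Dgat1, Dgat2, Mogat1, Mttp and Tm6sf2, in mouse liver after ethanol gavage. The genes were found on the arrays through the RefSeq accession of each probe, which gave 19 of the 41174 probes, and 6 of the 10 genes had more than 1 probe. Liver of 3 conditions was compared in male C57BL/6N mice. The groups were 7 g/kg ethanol (3 arrays), 5 g/kg ethanol (4 arrays) and isocaloric maltose, a sugar control matched to the calories of 5 g/kg ethanol (3 arrays). Calories and dose therefore cannot be told apart where 7 g/kg is set against maltose. The labels state neither the age of the mice nor the hours between gavage and sampling, and they number the gavages without saying that each array is a separate mouse, so the p-values reflect only how far the arrays of a group differed among themselves. The title of the study names acute liver injury, ER stress, adipocyte death and lipolysis as its subject.

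Every array set Cy5-labelled liver cDNA against Cy3-labelled cDNA of Ambion Mouse Assorted Total RNA, a commercial reference that the labels also list as liver. Values below are log2 ratios of liver over this reference after background correction and loess, and a change is the difference between 2 group means on that scale. The reference is the same on all arrays, so a probe can be followed across arrays, but the ratios of different probes are not levels that can be ranked against each other. In the liver channel, spots had a median of 121 to 219 scanner units and local backgrounds of 21 to 24, and 67.3% to 86.2% of spots were well above background. The 6 hepatocyte markers found on the array were well above background on all 10 arrays, but so were all 7 endothelial and all 3 exocrine pancreas markers, so detection does not tell the labelled tissue from others. The number of arrays limits the precision of every value, and in whole liver fewer cells of a type and less RNA per cell cannot be told apart.

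Hepatocytes build triglyceride by adding fatty acids one after another to glycerol phosphate. Glycerol-phosphate and lysophosphatidate acyltransferases make phosphatidate, lipins remove its phosphate to give diacylglycerol, and diacylglycerol acyltransferases add the last fatty acid. Part of this triglyceride is stored in droplets, and part is loaded by microsomal triglyceride transfer protein onto apolipoprotein B in the ER and leaves the liver as VLDL. Ethanol is long known to raise hepatic triglyceride, and both steps are studied in that setting.

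Of the 10 genes, Lpin1 and Mttp were higher and Lpin2 and Agpat3 were lower at 7 g/kg than in maltose livers (limma, threshold 0.05 on p-values adjusted by Benjamini-Hochberg over every gene tested). At 5 g/kg, Mttp was higher and Lpin2 was lower than in maltose livers. Between the doses, Lpin2 was lower at 7 g/kg than at 5 g/kg. Gpam of the first acylation and Dgat1 and Dgat2 of the last did not pass in any comparison, nor did Agpat2, Mogat1 or Tm6sf2. As background, 9.02% of 26970 genes were called at 7 g/kg against maltose (4.65% higher, 4.37% lower), 3.79% at 5 g/kg against maltose (2.21% higher, 1.58% lower) and 1.68% at 7 g/kg against 5 g/kg (0.727% higher, 0.949% lower).

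These counts keep spots that carry an outlier mark from the scanner software, because that mark removed some of the genes. With marked spots left out, 7 of the 10 genes could be tested. Of those 7, Lpin1 was higher and Agpat3 lower at 7 g/kg against maltose, with 9.01% of 26148 genes called (4.65% higher, 4.36% lower). None of the 7 was called by limma at 5 g/kg against maltose, where 3.79% of genes were called (2.22% higher, 1.57% lower) and 2 of the 7 had an unadjusted p under 0.05. None of the 7 was called at 7 g/kg against 5 g/kg, where 1.57% of genes were called (0.662% higher, 0.906% lower) and again 2 had an unadjusted p under 0.05. The percentages are for adjusted p. The share of all genes with an unadjusted p under 0.05 was not counted, so the counts by unadjusted p have no background here. The share of all calls that were higher moved with the centring. It was 51.7% at 7 g/kg against maltose, 58.6% at 5 g/kg against maltose and 42.2% between the doses after loess, 67.0%, 75.7% and 52.5% in the same order with median centring, and 63.4%, 70.3% and 60.5% with the liver channel alone. Lpin2, Mttp and Tm6sf2 had too few unmarked spots for that test and are given from the fit that keeps marked spots. Marked were 8 of 10 Mttp spots (3 at 7 g/kg, 3 at 5 g/kg and 2 in maltose), 5 of 10 Lpin2 spots (1, 2 and 2 in the same order) and 4 of 10 Tm6sf2 spots (3 at 7 g/kg, 1 at 5 g/kg). All these marks were for uneven pixels in the liver channel, no spot was saturated, and all of the spots were well above background in the liver channel.

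**Figure D1:**
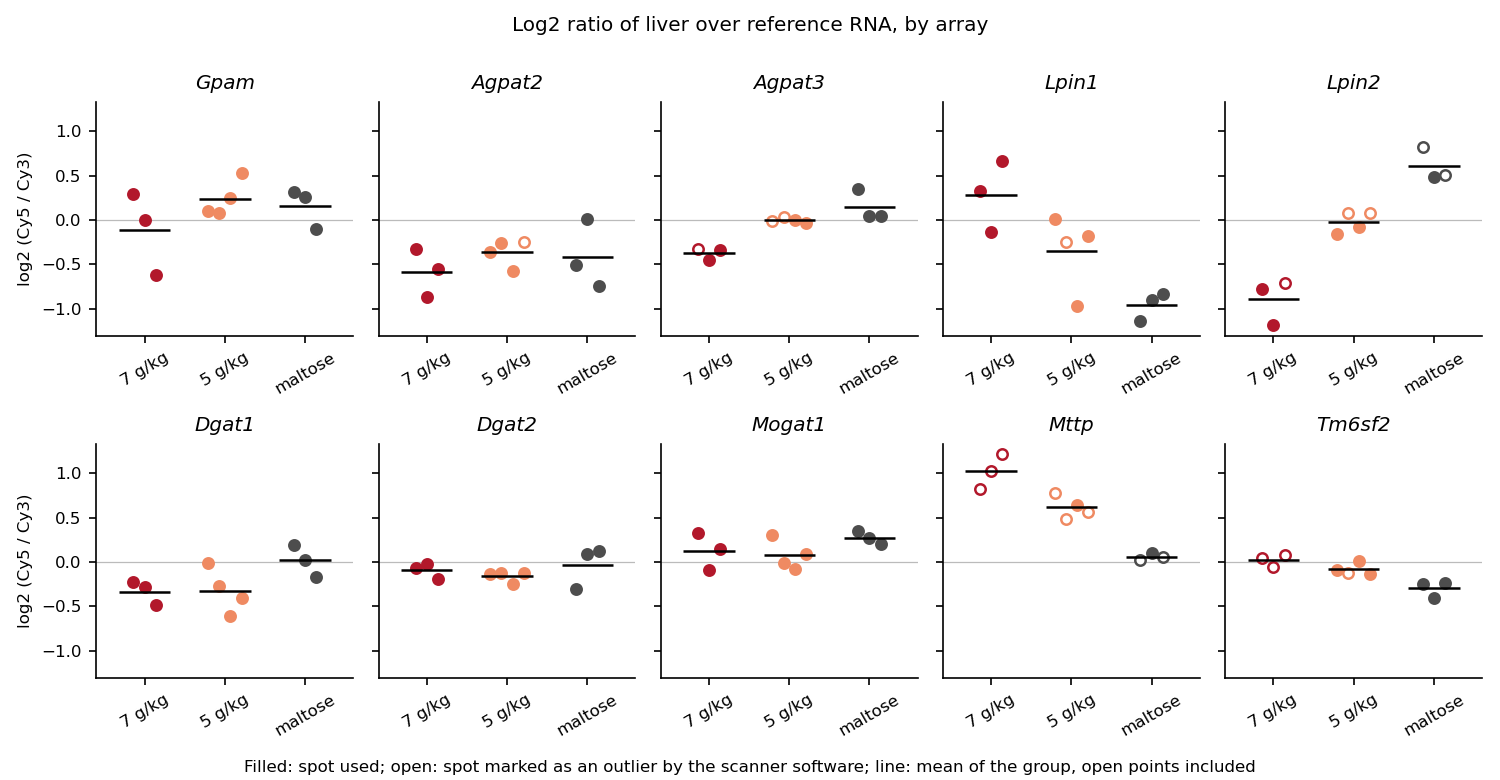
Log2 ratio of liver over reference RNA (y axis) for each of the 10 genes on each array, grouped as 7 g/kg, 5 g/kg and maltose; filled points are unmarked spots, open points are outlier-marked spots and lines are group means with open points included. Lpin2 is lowest and Mttp highest at 7 g/kg, with 5 g/kg in between and no overlap between groups, while the groups of Gpam, Agpat2, Dgat2 and Mogat1 overlap.

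Lpin1 encodes lipin 1, a phosphatidate phosphatase that in mouse liver also acts in the nucleus beside PPARα and its coactivator. Log2 ratios for Lpin1 were 0.32, −0.14 and 0.66 on the 7 g/kg arrays, 0.02, −0.25, −0.97 and −0.18 on the 5 g/kg arrays, and −1.14, −0.91 and −0.83 on the maltose arrays. The 7 g/kg arrays all lay above the maltose arrays, and 1 of the 4 arrays at 5 g/kg, the one at −0.97, lay within the maltose range. On another Lpin1 probe that array, at −0.71, lay above the highest maltose array, at −0.77. On the remaining probe it again lay within the maltose range. Lpin1 was 2.35-fold higher at 7 g/kg than in maltose livers (log2 1.23, SE 0.236, 95% interval 0.72 to 1.74, adjusted p = 0.00477). The change at 5 g/kg against maltose was 0.59 (95% interval 0.08 to 1.1, adjusted p = 0.233), and at 7 g/kg against 5 g/kg 0.64 (0.13 to 1.15, adjusted p = 0.299). Neither of these passed. The second 5 g/kg spot was outlier-marked and is left out of these tests, which had 3 arrays in each group.

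At 5 g/kg against maltose, Lpin1 passed in 2 of 27 alternatives besides the liver channel alone. Without the third 5 g/kg array the change against maltose was 0.89 (adjusted p = 0.0334), and with slide as a block in the fit it was 0.82 (adjusted p = 0.0103). The third 5 g/kg array shared slide 1 with the second 7 g/kg array, which was also the lowest of its own group for Lpin1. Slide 1 held no maltose array. Array and slide cannot be told apart here, and the part of either was not tested. On the slides that held both groups, Lpin1 differed by 1.23 to 1.49 at 7 g/kg against maltose, by 0.65 to 1.16 at 5 g/kg against maltose and by 0.57 to 0.84 at 7 g/kg against 5 g/kg. All 3 Lpin1 probes gave similar changes at 7 g/kg against maltose, 1.25, 1.29 and 1.24, and all passed in the fit over single probes, where 9.45% of 33973 probes were called. At 5 g/kg against maltose the 3 probes gave 0.65, 0.68 and 0.61, and none passed (adjusted p = 0.0876, 0.0892 and 0.145), with 4.15% of probes called.

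Lpin2 encodes lipin 2, the second phosphatidate phosphatase of this family in liver, and loss of the human gene causes an inflammatory bone disease. Its log2 ratio was −0.78, −1.18 and −0.71 on the 7 g/kg arrays, −0.16, 0.08, −0.08 and 0.08 on the 5 g/kg arrays, and 0.82, 0.49 and 0.51 on the maltose arrays. The 3 groups were fully apart, with 7 g/kg lowest and maltose highest. Lpin2 was 2.83-fold lower at 7 g/kg than in maltose livers (log2 −1.50, SE 0.140, adjusted p = 1.53e-05). It was 1.55-fold lower at 5 g/kg than in maltose livers (log2 −0.63, SE 0.131, adjusted p = 0.0151) and 1.83-fold lower at 7 g/kg than at 5 g/kg (log2 −0.87, SE 0.131, adjusted p = 0.00319). Within slides the change was −1.26 to −1.22 at 7 g/kg against maltose, −0.98 to −0.41 at 5 g/kg against maltose, and −1.10 to −0.79 at 7 g/kg against 5 g/kg. The call at 5 g/kg against maltose was lost without the first maltose array (−0.52, adjusted p = 0.0946) and with the scanner's processed signals (−0.63, adjusted p = 0.0791). With the liver channel alone, Lpin2 passed neither at 5 g/kg against maltose (−0.88, adjusted p = 0.166) nor between the doses (−0.68, adjusted p = 0.665).

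Both lipins catalyse the same reaction, and at 7 g/kg against maltose their group means differed in opposite directions. Among the 3 arrays at 7 g/kg the 2 genes had the same order, both lowest on the second and highest on the third. The log2 ratio of Lpin1 minus that of Lpin2 was 1.1, 1.05 and 1.38 on the 7 g/kg arrays, 0.17, −0.32, −0.89 and −0.26 on the 5 g/kg arrays, and −1.97, −1.39 and −1.34 on the maltose arrays. The groups did not overlap. The group means were 1.18 ± 0.177 at 7 g/kg (SD, n = 3), −0.32 ± 0.438 at 5 g/kg (SD, n = 4) and −1.57 ± 0.348 in maltose livers (SD, n = 3). The balance of Lpin1 to Lpin2 signal was therefore 6.68-fold higher at 7 g/kg than in maltose livers and 2.36-fold higher at 5 g/kg than in maltose livers. It was 2.83-fold higher at 7 g/kg than at 5 g/kg. These differences are a description, and no test of them is given, because they follow from the values of both genes above. Marked spots were kept in them, among these the Lpin2 spots of 5 arrays. The zero of the difference depends on the reference RNA, so its sign on an array does not say which lipin was more abundant.

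**Figure D2:**
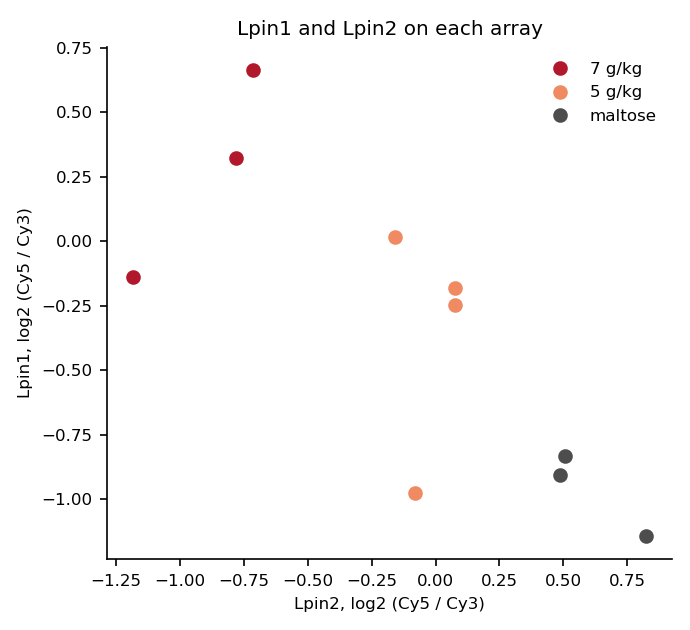
Log2 ratio of Lpin1 (y axis) against log2 ratio of Lpin2 (x axis), 1 point per array, coloured by 7 g/kg, 5 g/kg and maltose, with outlier-marked spots included. The 3 arrays at 7 g/kg lie to the left, with Lpin2 at −1.18 to −0.71, the 4 arrays at 5 g/kg lie near 0 on the Lpin2 axis, and the 3 maltose arrays lie at the lower right.

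Mttp encodes the large subunit of microsomal triglyceride transfer protein, which loads lipid onto apolipoprotein B; people who lack it make almost no VLDL. Its log2 ratio was 0.82, 1.03 and 1.21 on the 7 g/kg arrays, 0.78, 0.48, 0.65 and 0.57 on the 5 g/kg arrays, and 0.02, 0.10 and 0.06 on the maltose arrays. The 3 groups did not overlap, although the highest 5 g/kg array and the lowest 7 g/kg array were only 0.04 apart. Mttp was 1.95-fold higher at 7 g/kg than in maltose livers (log2 0.96, SE 0.120, adjusted p = 0.00016) and 1.47-fold higher at 5 g/kg than in maltose livers (log2 0.56, SE 0.112, adjusted p = 0.0118). The difference between the doses was 0.40 (95% interval 0.16 to 0.64, adjusted p = 0.11) and did not pass. Within slides, Mttp was higher by 0.72 to 1.15 at 7 g/kg against maltose and by 0.38 to 0.76 at 5 g/kg against maltose. Without the first maltose array the 5 g/kg change was 0.54 and no longer passed (adjusted p = 0.0616), nor did it with the liver channel alone (0.47, adjusted p = 0.621). Only 2 of its 10 spots were unmarked, 1 at 5 g/kg (0.65) and 1 in maltose (0.10).

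Tm6sf2 encodes an ER and Golgi membrane protein that in mice is needed to load VLDL with lipid, and variation in the human gene is associated with fatty liver. Its log2 ratio was 0.05, −0.06 and 0.08 on the 7 g/kg arrays, −0.08, −0.12, 0.01 and −0.13 on the 5 g/kg arrays, and −0.25, −0.40 and −0.24 on the maltose arrays. All ethanol arrays lay above all maltose arrays, and the groups at 7 g/kg and 5 g/kg overlapped. The change at 7 g/kg against maltose was 0.32 (95% interval 0.11 to 0.54, adjusted p = 0.0634), and at 5 g/kg against maltose 0.22 (0.01 to 0.42, adjusted p = 0.273). Neither passed, and the 7 g/kg change came under the threshold in 3 other settings (adjusted p = 0.0493 with probes averaged, 0.0487 with limma's trended and robust variance, 0.0458 with array weights). Tm6sf2 had 1 probe, so averaging probes left its own change at 0.32 and altered only the values of other genes.

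Agpat3 encodes a lysophosphatidate acyltransferase that in mice also places docosahexaenoic acid in phospholipids. Its log2 ratio was −0.32, −0.45 and −0.34 on the 7 g/kg arrays, −0.01, 0.03, 0.00 and −0.04 on the 5 g/kg arrays, and 0.35, 0.04 and 0.05 on the maltose arrays. The 7 g/kg arrays lay below all others, while the 5 g/kg arrays lay only 0.02 below the nearest maltose array. On the gene's second probe the 7 g/kg arrays again lay below all others, but the 5 g/kg arrays overlapped the maltose arrays. With marked spots left out, Agpat3 was 1.47-fold lower at 7 g/kg than in maltose livers (log2 −0.55, SE 0.131, adjusted p = 0.0224, 2 against 3 arrays). With them kept the change was −0.52 (adjusted p = 0.00697, 3 arrays each). The second probe gave −0.42 and also passed in the fit over single probes (adjusted p = 0.0477). Within slides, with marked spots kept, the change was −0.39 to −0.37 at 7 g/kg against maltose. With marked spots kept, Agpat3 passed in 24 of the 24 alternatives other than the liver channel alone (−0.57 to −0.42, adjusted p = 0.00408 to 0.0396), which include slide as a block (−0.47, adjusted p = 0.0387) and each of the 10 arrays left out. It did not pass with the liver channel alone (−0.45, adjusted p = 0.219). With marked spots left out, the call was lost with slide as a block (−0.43, adjusted p = 0.193) and without the first maltose array (−0.46, adjusted p = 0.0838). Leaving out the second or the third 7 g/kg array, or the third 5 g/kg array or the last of that group, left the first probe with too few unmarked spots, so that the second probe stood for the gene. Its change was then −0.45, −0.41, −0.42 and −0.42 (adjusted p = 0.0865, 0.112, 0.055 and 0.0539), and array and probe cannot be told apart in these values. With marked spots left out, the change at 5 g/kg against maltose was −0.15 (adjusted p = 0.673), and between the doses −0.40 (adjusted p = 0.3), with 2 unmarked spots at each dose.

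Gpam and Agpat2, the other genes of the first steps, overlapped between all groups. Gpam encodes the mitochondrial glycerol-phosphate acyltransferase, whose reaction starts the pathway. Gpam had log2 ratios of 0.29, −0.01 and −0.62 on the 7 g/kg arrays, 0.11, 0.08, 0.25 and 0.53 on the 5 g/kg arrays, and 0.32, 0.26 and −0.10 on the maltose arrays. The 7 g/kg arrays spread over a wider range than the other groups. The change was −0.27 at 7 g/kg against maltose (95% interval −0.69 to 0.15, adjusted p = 0.527), 0.08 at 5 g/kg against maltose (−0.31 to 0.48, adjusted p = 0.893) and −0.35 at 7 g/kg against 5 g/kg (−0.75 to 0.04, adjusted p = 0.547). Agpat2 encodes the lysophosphatidate acyltransferase whose loss in people causes lipodystrophy. Log2 ratios for Agpat2 were −0.33, −0.87 and −0.55 on the 7 g/kg arrays, −0.36, −0.26, −0.57 and −0.25 on the 5 g/kg arrays, and −0.51, 0.01 and −0.74 on the maltose arrays. The maltose arrays alone spanned nearly the whole range. Without the outlier-marked last 5 g/kg spot, the change was −0.17 at 7 g/kg against maltose (95% interval −0.58 to 0.23, adjusted p = 0.707) and 0.02 at 5 g/kg against maltose (−0.38 to 0.43, adjusted p = 0.978).

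The genes of the last acylation, Dgat1 and Dgat2, did not pass. Dgat1 encodes the diacylglycerol acyltransferase of the ER membrane that handles mainly fatty acids taken up by the cell. Dgat1 had log2 ratios of −0.23, −0.29 and −0.49 on the 7 g/kg arrays, −0.02, −0.27, −0.61 and −0.40 on the 5 g/kg arrays, and 0.19, 0.03 and −0.17 on the maltose arrays. The 7 g/kg arrays lay below all maltose arrays and the 5 g/kg arrays overlapped both groups. The change was −0.35 at 7 g/kg against maltose (95% interval −0.67 to −0.04, adjusted p = 0.176) and −0.34 at 5 g/kg against maltose (−0.64 to −0.05, adjusted p = 0.22). The other Dgat1 probe gave −0.31 and −0.43 in these comparisons, also without a call, and its 7 g/kg arrays overlapped the maltose arrays.

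Dgat2 encodes the acyltransferase tied to newly made fatty acids and droplet growth. Dgat2 had log2 ratios of −0.07, −0.02 and −0.19 on the 7 g/kg arrays, −0.14, −0.12, −0.25 and −0.13 on the 5 g/kg arrays, and −0.31, 0.09 and 0.13 on the maltose arrays. The ethanol arrays lay within the maltose range. The change was −0.07 at 7 g/kg against maltose (95% interval −0.34 to 0.20, adjusted p = 0.85) and −0.11 at 5 g/kg against maltose (−0.37 to 0.14, adjusted p = 0.729). Mogat1 did not pass either; it encodes a monoacylglycerol acyltransferase, which makes diacylglycerol without passing through phosphatidate. Mogat1 had log2 ratios of 0.33, −0.10 and 0.14 on the 7 g/kg arrays, 0.30, −0.01, −0.08 and 0.09 on the 5 g/kg arrays, and 0.34, 0.27 and 0.20 on the maltose arrays. The groups overlapped. The change was −0.15 at 7 g/kg against maltose (95% interval −0.42 to 0.13, adjusted p = 0.619) and −0.20 at 5 g/kg against maltose (−0.45 to 0.06, adjusted p = 0.494). The 3 probes of Dgat2 and the 3 of Mogat1 did not all share a sign in these comparisons, at 7 g/kg for Dgat2 (0.08, −0.01 and −0.06) and at 5 g/kg for Mogat1 (−0.19, −0.02 and 0.12).

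**Figure D3:**
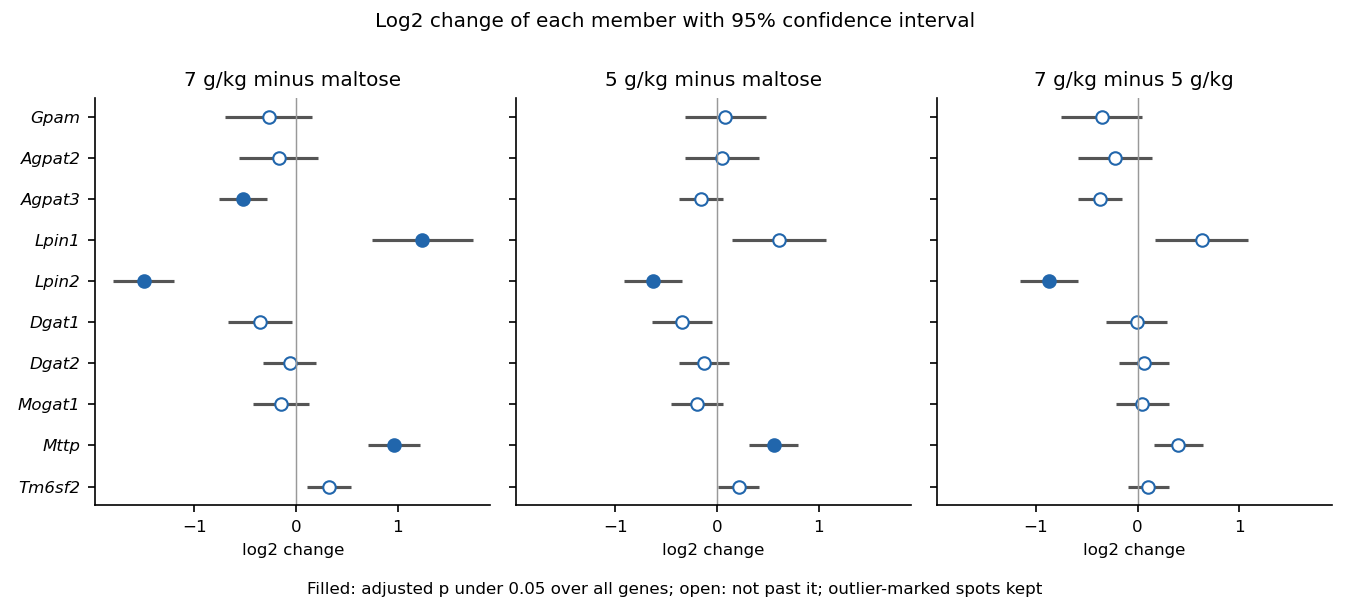
Log2 change of each of the 10 genes (x axis) with its 95% confidence interval from limma, for 7 g/kg minus maltose, 5 g/kg minus maltose and 7 g/kg minus 5 g/kg, with outlier-marked spots kept; filled points had an adjusted p under 0.05. The 4 filled points of the first panel are Agpat3, Lpin1, Lpin2 and Mttp, those of the second are Lpin2 and Mttp, and that of the third is Lpin2.

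**Figure D4:**
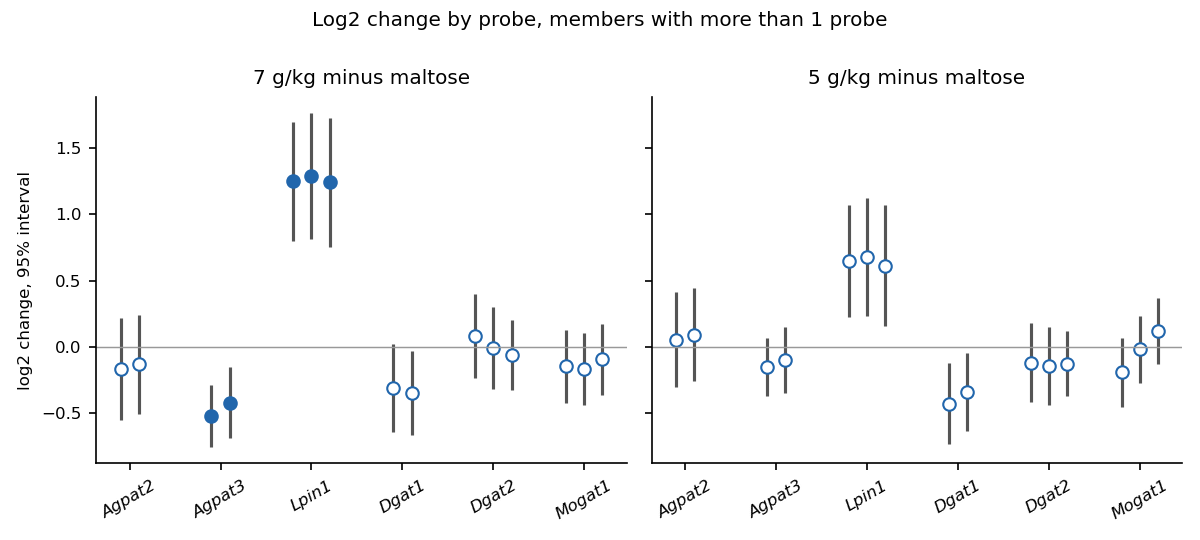
Log2 change (y axis) of every probe of the 6 genes with more than 1 probe, for 7 g/kg minus maltose and 5 g/kg minus maltose, with 95% confidence intervals from limma; filled points had an adjusted p under 0.05. The 3 Lpin1 probes lie at 1.24 to 1.29 and the Agpat3 probes at −0.52 and −0.42 at 7 g/kg, while no probe is filled at 5 g/kg.

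Across the 10 genes the median change was small and its sign differed between comparisons, −0.16 at 7 g/kg against maltose, −0.04 at 5 g/kg against maltose and 0.02 at 7 g/kg against 5 g/kg. The median size of the change regardless of sign was 0.34 at 7 g/kg against maltose, beside 0.13 over all genes. At 5 g/kg against maltose it was 0.21, beside 0.11 over all genes, and between the doses 0.29, beside 0.10. Groups did not overlap for 6 of the 10 genes at 7 g/kg against maltose, where this held for 24.4% of all genes. The 6 were Agpat3, Lpin1, Lpin2, Dgat1 (by its highest-signal probe only), Mttp and Tm6sf2. The 10 genes were chosen with earlier results of these data known, so their shares beside all genes are a description. It held for 4 of the 10 at 5 g/kg against maltose (Agpat3 by its first probe only, Lpin2, Mttp and Tm6sf2), beside 16.1% of all genes. At 7 g/kg against 5 g/kg it held for 3 of the 10 (Agpat3, Lpin2 and Mttp), beside 10.3% of all genes. The comparisons of both doses with maltose share the 3 maltose arrays.

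Promoters are printed for Lpin1, Lpin2 and Mttp, the genes with the largest called changes here, to show what the windows of the gene that fell and of those that rose hold. The sequences are RefSeq windows on GRCm38.p6, from 250 bases before to 50 bases after an annotated start, written 5′ to 3′ on the strand of the gene. Capitals mark matches, on either strand, to motifs searched by their letters.
Lpin1, chr12:16610917-16611216, minus strand: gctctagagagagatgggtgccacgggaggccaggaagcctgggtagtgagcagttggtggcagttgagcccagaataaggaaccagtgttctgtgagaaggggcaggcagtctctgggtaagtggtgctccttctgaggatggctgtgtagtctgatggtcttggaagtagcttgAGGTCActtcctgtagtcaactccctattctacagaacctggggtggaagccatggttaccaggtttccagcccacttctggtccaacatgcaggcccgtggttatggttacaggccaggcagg
Lpin2, first of 3 annotated starts, chr17:71183282-71183581, plus strand: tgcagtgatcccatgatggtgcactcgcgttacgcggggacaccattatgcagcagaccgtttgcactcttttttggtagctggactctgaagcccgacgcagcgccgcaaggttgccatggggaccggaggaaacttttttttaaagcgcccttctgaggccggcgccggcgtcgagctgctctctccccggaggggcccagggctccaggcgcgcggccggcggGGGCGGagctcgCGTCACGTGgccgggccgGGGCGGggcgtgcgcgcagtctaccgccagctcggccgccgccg
Mttp, chr3:138143369-138143668, minus strand: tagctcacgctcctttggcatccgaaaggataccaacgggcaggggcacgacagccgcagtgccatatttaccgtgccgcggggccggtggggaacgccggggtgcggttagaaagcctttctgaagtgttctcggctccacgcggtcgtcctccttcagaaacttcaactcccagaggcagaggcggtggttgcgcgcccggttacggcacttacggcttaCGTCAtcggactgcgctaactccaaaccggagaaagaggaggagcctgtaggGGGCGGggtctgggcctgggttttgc
The Lpin1 window held 1 match, the nuclear receptor half-site AGGTCA at −74 from the start, a motif found in 16.3% of all 32817 windows. The Lpin2 window held the GC box GGGCGG at −24 and at 7 (35.6% of windows) and the E-box CACGTG at −9 (7.15%), which overlaps the cyclic AMP half-site TGACG read on the other strand at −12 (20.8%). The Mttp window held TGACG on the other strand at −28 and GGGCGG at 25. None of the 3 printed windows held the sterol element form TCACNCCAC (1.24% of windows), a direct repeat of AGGTCA spaced by 1 base (0.0396%), the forkhead form TGTTTNC (20.5%), CCAAT (37.4%), TATAAA (13.6%) or TTATGTAA (0.935%). Their GC content was 55.3% for Lpin1, 68.7% for Lpin2 and 62.0% for Mttp, beside a median of 52.7% over all windows. The other Lpin2 windows, not printed, differed from the first. The second held 1 GC box and had a GC content of 80.7%, while the third, at 45.0%, held TGTTTNC at −138 and −11 and CCAAT at 3 places. A match is a match of letters, and no binding was measured. Windows for 7 of the 10 genes were matched in the RefSeq table.

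Genes whose pattern over the 10 arrays was closest to each called gene were listed by Pearson's r, with marked spots kept. They were sought among 15297 genes with a symbol and values on all arrays, with provisional and clone-like symbols left out. The list is a description of arrays that share their groups and slides. Closest to Lpin2 were Ephx2 (r = 0.988), the soluble epoxide hydrolase, Abcb4 (0.985), the canalicular phospholipid transporter, and Ttc36 (0.984). Closest to Agpat3 were Cox6b2 (0.985), Vamp8 (0.979) and again Ephx2 (0.977). Closest to Mttp were Ptprj (0.978), the bile acid hydroxylase gene Cyp2c70 (0.975) and the serpin gene Serpina3k (0.968). Closest to Lpin1 were Gabbr2 (0.966), Timm22 (0.962) and Carmil1 (0.938). After group means were removed, r was 0.744 to 0.849 for the genes near Lpin2, 0.901 to 0.949 near Agpat3, 0.676 to 0.805 near Mttp and 0.818 to 0.949 near Lpin1.

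The rest of glycerolipid synthesis was described with a list of 21 genes, of which 18 were tested with marked spots left out. In the comparison of 7 g/kg with maltose 1 was higher and 1 lower (median −0.07), namely Gpat2, a glycerol-phosphate acyltransferase best known from testis (1.09, adjusted p = 0.0112), and Gk, glycerol kinase (−1.56, adjusted p = 0.000414). In the comparison of 5 g/kg with maltose 1 was higher and 1 lower (median 0.03), Plpp1 (0.80, adjusted p = 0.0258) and Plpp3 (−0.68, adjusted p = 0.0153), which encode lipid phosphate phosphatases of the cell membrane. Between the doses 2 were lower at 7 g/kg, Gk (−0.96, adjusted p = 0.0271) and Gpat3 (−0.79, adjusted p = 0.0332). With marked spots kept, all 21 were tested and 3 were higher and 3 lower at 7 g/kg against maltose. Lpin3, the other lipin gene, had a difference of 0.29 at 7 g/kg against maltose (adjusted p = 0.206) and of 0.08 at 5 g/kg against maltose (adjusted p = 0.812); it is named after its values were seen.

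Of 22 further genes of VLDL assembly and secretion, 20 were tested. Of the 20, 1 was higher and 4 were lower at 7 g/kg against maltose (median 0.07). The higher gene was Vmp1, an ER membrane protein needed in mice for lipoprotein release (1.30, adjusted p = 0.000177). Among the lower genes were Ces1d, a lipase that mobilises stored triglyceride for VLDL (−1.11, adjusted p = 0.00336) and Cideb, a droplet and VLDL lipidation factor (−0.59, adjusted p = 0.00515). Ces1d lies among similar carboxylesterase genes whose transcripts a probe may share. Vmp1 was higher (1.27, adjusted p = 0.000552) and Ces1d lower (−0.80, adjusted p = 0.0381) at 5 g/kg against maltose, and no other gene of the 20 passed (median 0.00). Between the doses 1 of 20 passed, the lipase gene Aadac, higher at 7 g/kg (0.42, adjusted p = 0.0407). Apob, the partner of Mttp, had a difference of −0.25 at 7 g/kg against maltose (adjusted p = 0.235) and of 0.12 at 5 g/kg against maltose (adjusted p = 0.694), and is named after its values were seen.

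Phosphatidylcholine and phosphatidylethanolamine, which coat VLDL, draw on the same diacylglycerol, and 11 of 13 genes of their synthesis were tested. Of these, 1 was higher and 2 were lower at 7 g/kg against maltose (median −0.37), Chka, choline kinase (0.83, adjusted p = 0.00876), Pcyt2, of the ethanolamine branch (−0.54, adjusted p = 0.00733), and Chpt1, choline phosphotransferase (−0.59, adjusted p = 0.0306). Likewise 1 was higher and 2 were lower at 5 g/kg against maltose (median −0.11), Chka (0.83, adjusted p = 0.0125), Pcyt2 (−0.52, adjusted p = 0.0129) and Pemt, which methylates phosphatidylethanolamine (−0.43, adjusted p = 0.0334). Between the doses Chpt1 was lower at 7 g/kg (−0.75, adjusted p = 0.0182), the 1 call among 11. Over all genes tested the median change was 0.01 at 7 g/kg against maltose, 0.00 at 5 g/kg against maltose and 0.00 between the doses.

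Of 21 genes for regulators known to act on these pathways, 20 were tested. Of these, 4 were higher and 5 lower at 7 g/kg against maltose (median −0.06). Ppara, a nuclear receptor of fatty acid use, fell by 1.15 (adjusted p = 4.02e-05), and Insig2, which holds sterol regulatory proteins in the ER, rose by 2.14 (adjusted p = 9.08e-05). Mlxipl, the carbohydrate response factor ChREBP, rose by 0.84 (adjusted p = 0.00163) and its partner Mlx by 0.68 (adjusted p = 0.00193). Of the same 20, 2 were higher and 1 lower at 5 g/kg against maltose (median −0.12), Insig2 and Mlx (0.56, adjusted p = 0.0107) against Ppara. Between the doses Mlxipl alone passed, higher at 7 g/kg (0.79, adjusted p = 0.00733).

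**Figure D5:**
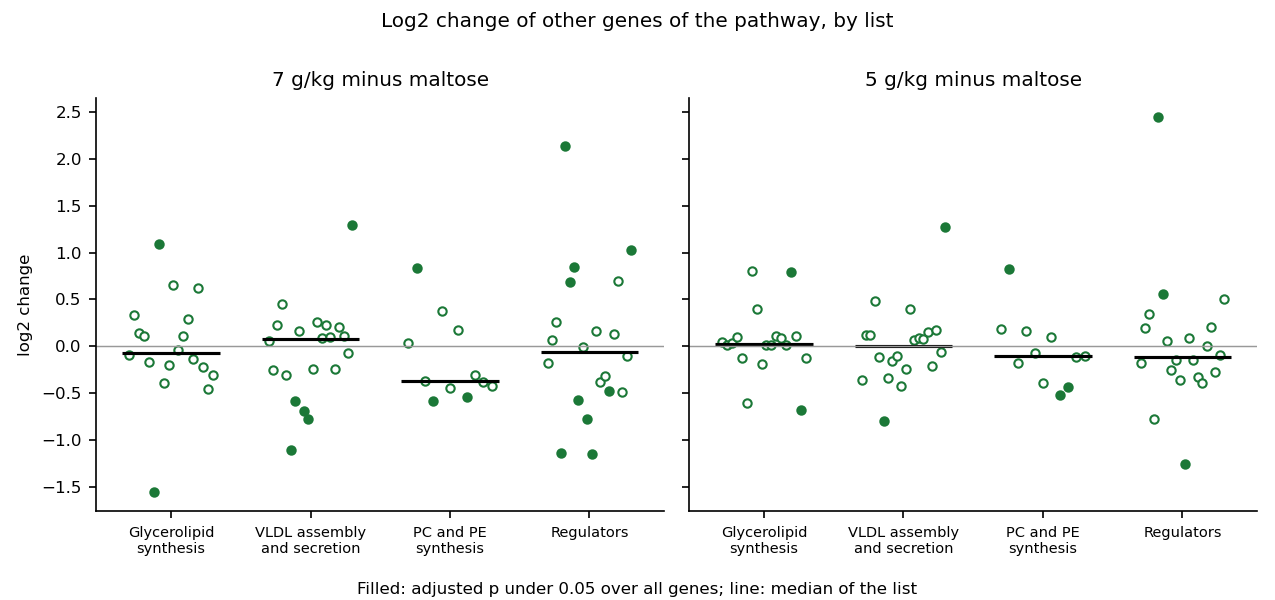
Log2 change (y axis) of each tested gene in 4 lists around the pathway, for 7 g/kg minus maltose and 5 g/kg minus maltose, with outlier-marked spots left out; filled points had an adjusted p under 0.05 in limma and lines are list medians. Insig2 is the highest point in both panels, and at 7 g/kg the median of phosphatidylcholine and phosphatidylethanolamine synthesis lies at −0.37 while the others lie near 0.

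Markers of other cells that liver samples can hold were read beside these changes. Of 7 endothelial markers, 3 were higher at 7 g/kg against maltose, Lyve1 (1.72), Cdh5 (0.68) and Pecam1 (0.59), but the list median was 0.04. Ehd3 (−0.40), Kdr (−0.28), Stab2 (0.04) and Clec4g (0.02) did not pass. The mean log2 ratio of the 7 endothelial markers per array, with marked spots kept, was −0.09 to 0.05 at 7 g/kg, −0.11 to 0.07 at 5 g/kg and −0.50 to −0.26 in maltose livers. For neutrophils 2 of 4 tested markers were higher, S100a8 by 1.28 and S100a9 by 1.41, and the list mean, here over 5 markers, was 0.14 to 0.38 at 7 g/kg, −0.25 to 0.27 at 5 g/kg and −0.36 to −0.15 in maltose livers. For enterocytes, the other cells that make Mttp in quantity, 2 of 4 tested markers were lower at 7 g/kg against maltose, Fabp2 (−1.46) and Apoa4 (−1.99), the second of which mouse liver also makes, and none was higher. The enterocyte list mean was −0.72 to −0.58 at 7 g/kg, −0.25 to 0.11 at 5 g/kg and 0.13 to 0.51 in maltose livers. For adipocytes 1 of 7 markers was higher, Fabp4 by 0.75, and the list mean was −0.08 to 0.13 at 7 g/kg, −0.07 to 0.03 at 5 g/kg and −0.30 to −0.02 in maltose livers.

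Lymphocyte markers were higher in 1 of 5 cases at 7 g/kg against maltose, and no tested marker of Kupffer cells (6), stellate cells and fibroblasts (7), cholangiocytes (5) or exocrine pancreas (3) passed in that comparison by limma. With marked spots kept, 1 of the 7 stellate and fibroblast markers was higher there. In the comparison of 5 g/kg with maltose, 2 of 7 endothelial markers were higher, Lyve1 (1.29, adjusted p = 0.00159) and Cdh5 (0.59, adjusted p = 0.0462), and 1 of 7 stellate and fibroblast markers was higher, Dcn (0.74, adjusted p = 0.0102). The cholangiocyte marker Spp1 (−0.48, adjusted p = 0.0187) and the enterocyte marker Fabp2 (−0.58, adjusted p = 0.00917) were lower there, and 1 of 6 hepatocyte markers, Ahsg, was higher (1.23, adjusted p = 0.000282). No tested marker of the other 5 cell types passed at 5 g/kg against maltose. Between the doses Fabp2 (−0.88) and Apoa4 (−1.67) were lower and S100a8 (0.89), well above background on only 6 arrays, was higher at 7 g/kg. The stellate and fibroblast list mean was 0.07 to 0.20 at 7 g/kg, 0.07 to 0.13 at 5 g/kg and −0.31 to −0.04 in maltose livers. No marker found on the array was below background on all 10 arrays. Hepatocyte markers were higher in 3 of 6 cases and lower in 1 at 7 g/kg against maltose, and their list mean was 0.53 to 0.89 at 7 g/kg, 0.74 to 0.87 at 5 g/kg and 0.20 to 0.52 in maltose livers. The part of these cell markers in the changes of Lpin1, Lpin2, Mttp and Agpat3 was not tested.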

How the data were processed

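The data were 2-colour Agilent arrays of 45018 spots, 1 per liver sample, in 3 groups of 3, 4 and 3 arrays on 4 slides. The software was Agilent Feature Extraction 11.5.1.1, per the file headers, and it gave an unnormalized median intensity for each spot and for its surroundings. Its processed intensity, per the file headers, had the background taken off, a spatial trend removed and the dyes balanced. The deposited log10 ratio puts red (liver) over green (reference). A series-wide table, also deposited, is in log2 of the same ratio, a scale read from its slope of 3.32 to 3.34 on the log10 ratio. Its column medians were −0.07 to 0.08, and the step between scanner ratio and table, including any centring, is not given in the sources used here.

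From the median intensities, normexp background correction (offset 50) and loess within each array were run in limma 3.58.1 (R 4.3.3). Control spots were left out, and so, in the planned test, were spots marked as outliers by the scanner software (2.72% to 5.94% of spots per array). Spots of a probe were averaged, and the probe with the highest mean signal stood for its gene. A probe had to be well above background in the liver channel on at least 3 arrays, with at least 2 values in each group. All 10 arrays entered 1 fit of 3 group means with eBayes and Benjamini-Hochberg adjustment over all genes tested, and the threshold was an adjusted p of 0.05, two-sided. The same fit was run with marked spots kept and over single probes. The genes and all lists were chosen with earlier results of these data known. Text names all 10 genes, and from each list at most 4 called genes per comparison with the smallest p, with exceptions said to be so. A gene that this rule would name is not reported here. The fit was tested on simulated data of 26148 genes for 7 g/kg against maltose, with 100 genes changed at each size. It recovered 92% of changes of log2 1 and 35% of changes of log2 0.5, with 5 false calls. In the real comparison 9.01% of genes were called. Recovery at an adjusted threshold depends on the share of genes changed, so these rates need not hold for these data. Replicate numbers did not pair the arrays, with same-numbered correlations of −0.19 to 0.18. Alternatives were other background corrections, normalizations, the liver channel alone, the series table, probe rules, variance models, slide or replicate number as a block, and each array left out.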

Additional observations from a re-analysis of the deposited data

Results flagged for a closer look

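Dgat2 on the third 5 g/kg array, at a log2 ratio of −0.25, lay apart from the other 3 arrays of its group, which were at −0.14 to −0.12. Its gap to the nearest was 0.869 of the group's range, above the 95% critical value of Dixon's test for 4 arrays, which no other of the 10 genes passed; chance alone flags about 1 group in 20. The same array was the lowest of its group for Lpin1, Agpat2, Dgat1 and Mogat1 (the last by its highest-signal probe only). It was the highest of its group for Tm6sf2.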

How the results depend on the processing

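Over 30 changes (10 genes in 3 comparisons) and 795 alternatives, 741 kept their direction and their side of the threshold, 30 turned direction, 19 lost a call and 5 gained one. None of the 30 that turned had a call. At 7 g/kg against maltose, Lpin1 passed in 27 of 27, Lpin2 in 23 of 23 and Mttp in 24 of 24 alternatives besides the liver channel alone, which gave Lpin1 1.04 (adjusted p = 0.237) and Mttp 0.83 (adjusted p = 0.0932). Agpat3 passed in 16 of 26 besides that setting with marked spots left out. It missed with offset 0 (adjusted p = 0.0614), median centring (0.0644), processed signals (0.076), slide as a block (0.193), the replicate block (0.0614) and 5 of the 10 arrays left out. In 5 of these 10 losses, the replicate block and 4 of the arrays, too few unmarked spots were left and its second probe stood for the gene. With marked spots kept it passed in 24 of 24. The alternatives for Lpin2, Mttp and Tm6sf2, those for Agpat3 with marked spots kept, and all counts with marked spots kept, were added after seeing the data.

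At 7 g/kg against maltose, 2 of 7 genes were called, 1 with normexp offset 0, median centring, scanner processed signals, slide as a block or the replicate block, 0 with the liver channel alone, 4 of 10 with marked spots kept, and 1 to 2 with an array left out. With the series table the count was 3 of 9. With marked spots kept, the count of 4 became 1 with the liver channel alone and 2 with marked spots left out. It became 5 with probes averaged, limma's trended and robust variance or array weights, and 3 of 9 with the series table. At 5 g/kg against maltose the count of 0 became 1 with the series table, 1 with slide as a block, 2 with marked spots kept, and 0 to 1 with an array left out. The count of 2 with marked spots kept became 0 with the liver channel alone, 1 with processed signals, 1 with the series table, 0 with marked spots left out, and 0 to 3 with an array left out, 0 being without the first maltose array. With slide as a block, that count of 2 at 5 g/kg against maltose became 3. At 7 g/kg against 5 g/kg the count of 0 became 1 with marked spots kept. The count of 1 with them kept became 0 with the liver channel alone, the series table or marked spots left out, and 2 with slide as a block.

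Over all genes at 7 g/kg against maltose, 2356 calls became 513 with the liver channel alone and 1496 to 2345 with an array left out (1496 without the first maltose array). At 5 g/kg against maltose 990 became 128 with the liver channel alone, 523 with processed signals, 585 with the series table, 1549 at an adjusted p under 0.1, and 468 to 1041 with an array left out (468, 636 and 497 without each maltose array). At 7 g/kg against 5 g/kg 410 became 201 with offset 0, 38 with the liver channel alone, 114 with processed signals, 138 with the series table, 621 at an adjusted p under 0.1, and 213 to 427 with an array left out. The replicate block gave 2306, 926 and 286 calls in these comparisons, although the numbers share no known litter or day.

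Changes that turned direction were at −0.20 to 0.08 in the planned test. At 7 g/kg against maltose these were Agpat2 (−0.34 to 0.045 with an array left out) and Dgat2 (−0.21 to 0.0081 with an array left out, 0.070 with another probe). At 5 g/kg against maltose they were Gpam (−0.016 with the replicate block, −0.045 to 0.16 with an array left out), Agpat2 (−0.094 with quantile normalization added, −0.14 to 0.24 with an array left out) and Mogat1 (0.12 with another probe, which also stood for the gene in the fit of those groups alone). At 7 g/kg against 5 g/kg Dgat1 was at 0.0073 with median centring, 0.028 with quantile normalization, 0.0041 with the liver channel alone, 0.015 with processed signals and with the series table, 0.054 with probes averaged, 0.078 with slide as a block, 0.12 with its other probe, and −0.11 to 0.090 with an array left out. Dgat2 was at −0.00097 with slide as a block. Mogat1 was at −0.10 with probes averaged, −0.22 and −0.15 with its other probes, and −0.050 to 0.16 with an array left out. Beyond these changes of probe, the cause was not tested where a call or direction changed. In the liver channel, 1 Mogat1 probe was well above background on 8 arrays and every other probe of these genes on all 10. The reference channel was not examined in this way, so a limit from dim reference spots was not tested.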
